A study of Mus musculus with 3 samples.

Results

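The genes described here are 10 of the 32285 genes measured in single cells from the glomeruli of lupus mice. They are the granzymes *Gzma*, *Gzmb*, *Gzmk* and *Gzmm*, the pore-forming protein *Prf1*, the granule proteins *Nkg7* and *Ctsw*, the cytokine *Ifng*, its transcription factor *Tbx21* and the chemokine *Xcl1*. They were chosen by name, and each name matched 1 gene of the files. MRL/lpr mice carry the lpr mutation of *Fas* and develop lupus nephritis. The females were bought at 6 to 8 weeks of age and entered the model group at about 16 weeks, by urine protein and hair loss. There were 3 libraries, with 1 from untreated MRL/lpr mice, 1 from MRL/lpr mice that had received 800000 mesenchymal stem cells of human umbilical cord (hUC-MSCs) through the tail vein, and 1 from control mice. Both MRL/lpr libraries are from day 21. For this experiment the sources used here do not give the strain, age or sampling day of the control mice. Nor do they give the number of mice in a library. Lupus, genetic background, age and preparation therefore cannot be told apart in a comparison with control mice.

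Cytotoxic T cells and natural killer (NK) cells kill by emptying granules toward a target cell. Perforin opens the way for granzymes, which are serine proteases, and interferon gamma, released by the same cells and by Th1 cells, acts on its receptor on tissue cells and macrophages. T-bet, the product of *Tbx21*, is a T-box transcription factor that drives this programme together with Eomes.

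Values are counts of unique molecular identifiers (UMIs), each marking 1 captured RNA molecule near its 3′ end. Barcodes with at least 500 UMIs and at most 10% mitochondrial UMIs were kept, which left 11473 of control, 17638 of untreated and 21821 of treated mice, with median depths of 4939, 2990 and 2024 UMIs. Barcodes with a UMI of *Cd3e*, *Cd3d* or *Cd3g*, the signalling chains of the T cell receptor, are called Cd3+ cells and numbered 174, 1574 and 1563. Only 1 UMI of these genes was present in 57, 506 and 735 of them, a larger share in treated mice. Barcodes without a UMI of the *Cd3* genes but with one of *Ncr1* or *Klre1*, receptors of NK cells, are called NK-gated cells. They numbered 93, 160 and 179. Median depth fell in the same order, with 3324, 1998 and 1614 UMIs in Cd3+ cells and 3655, 3028 and 1802 in NK-gated cells. All 10 markers of a T cell list were at least 2-fold higher in Cd3+ cells than in other barcodes in each library. By the same measure 12 of the 12 NK markers were higher in NK-gated cells of control, 11 of untreated and 9 of treated mice. Detection separates less, with 11 or 12 of them in NK-gated cells and 9, 11 and 11 in barcodes outside both gates. Markers of other cells were also present, because 60 of the 174, 555 of the 1574 and 582 of the 1563 Cd3+ cells carried the marker call of another class, most often endothelial. Of the NK-gated cells 36 of the 93, 52 of the 160 and 71 of the 179 did. Those without such a call held 163505 of the 618081 UMIs of NK-gated cells in control mice. They held 303893 of 673544 in untreated and 219568 of 529981 in treated mice, so the part of other barcodes in the CPM of this gate differed between libraries. Barcodes with such a call can hold more than 1 cell or free RNA, and each ratio was also computed without them. *Fas* had 140 CPM in Cd3+ cells of control, 222 of untreated and 171 of treated mice against 113, 136 and 168 in empty droplets (barcodes with 1 to 100 UMIs), so it does not settle the labels. Between 54 and 99 barcodes were shared by 2 libraries, where the product of the library sizes gives 29.8 to 56.6, and leaving them out moved none of 37 ratios beyond its interval. Free RNA was estimated from the markers of other classes, only in barcodes of a gate without another marker call. It was put at 3.3% of their UMIs in Cd3+ and 5.4% in NK-gated cells of control mice. The values were 21.7% and 13.6% in untreated and 24.0% and 16.6% in treated mice. The same markers chose these barcodes, and the share was subtracted from the whole gate. That subtraction therefore does not cover RNA of other cells in the remaining barcodes. A level below is the UMIs of a gene summed over a gate per 1000000 UMIs of that gate (CPM), with an exact 95% Poisson interval, and a ratio carries an exact conditional binomial interval. Intervals reflect the counting of molecules, not the variation among mice, for which a single library per group gives no estimate, and so no p-value is given.

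The genes are regulated by T-box factors among others, and the bases before their start are shown to place the letters those factors are known to bind. RefSeq (GRCm38.p6) gave the 250 bases before 10 starts of 9 of the genes, *Gzmm* having 2 starts, and *Ctsw* had none in the table used. The core GTGTGA, searched on both strands (reverse TCACAC), was in 5 of these 10 windows and in 12.3% of all 32851 windows of this length. Capitals mark it in the windows of *Gzmk* (chr13:113180966-113181215, minus strand), *Gzmb* (chr14:56262335-56262584, minus strand), *Nkg7* (chr7:43436888-43437137, plus strand) and *Xcl1* (chr1:164935523-164935772, minus strand), each read 5′ to 3′ along its gene. The window of *Ifng* (chr10:118440796-118441045, plus strand) is shown beside them and held no match, nor did those of *Gzma*, *Prf1* and *Tbx21*.
Gzmk: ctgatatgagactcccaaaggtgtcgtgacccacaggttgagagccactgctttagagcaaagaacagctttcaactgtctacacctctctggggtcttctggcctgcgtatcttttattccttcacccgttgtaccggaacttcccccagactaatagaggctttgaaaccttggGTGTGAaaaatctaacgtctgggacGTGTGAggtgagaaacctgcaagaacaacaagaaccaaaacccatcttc
Gzmb: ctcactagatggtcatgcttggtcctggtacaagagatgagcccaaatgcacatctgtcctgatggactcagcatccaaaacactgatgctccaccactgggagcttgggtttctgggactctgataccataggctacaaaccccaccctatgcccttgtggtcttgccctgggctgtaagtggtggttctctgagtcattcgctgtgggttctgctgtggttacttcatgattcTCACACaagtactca
Nkg7: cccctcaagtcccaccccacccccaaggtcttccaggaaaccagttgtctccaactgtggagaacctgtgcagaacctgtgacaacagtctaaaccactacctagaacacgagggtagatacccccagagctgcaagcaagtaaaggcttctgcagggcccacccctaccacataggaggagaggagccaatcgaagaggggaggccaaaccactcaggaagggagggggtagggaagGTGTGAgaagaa
Xcl1: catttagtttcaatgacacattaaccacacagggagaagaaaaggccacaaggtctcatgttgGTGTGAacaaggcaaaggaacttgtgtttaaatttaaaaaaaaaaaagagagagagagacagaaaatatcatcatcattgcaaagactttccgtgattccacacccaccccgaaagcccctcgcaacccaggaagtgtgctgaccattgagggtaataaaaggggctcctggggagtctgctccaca
Ifng: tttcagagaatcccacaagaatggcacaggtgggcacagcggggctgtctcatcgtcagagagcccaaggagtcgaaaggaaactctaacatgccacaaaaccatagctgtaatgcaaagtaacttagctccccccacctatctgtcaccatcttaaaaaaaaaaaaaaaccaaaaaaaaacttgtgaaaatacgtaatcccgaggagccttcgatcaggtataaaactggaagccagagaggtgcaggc
*Gzmk* held the core at 2 places, 74 and 49 bases before the start, and *Nkg7* and *Gzmb* close to it, at 12 and 15 bases. These are matches of letters in a window, and binding was not measured. The distances run from the RefSeq starts, and the annotation behind the gene coordinates given below has other starts for some genes. By that annotation the window of *Gzmk* lies wholly and that of *Nkg7* partly, its core included, within the gene. The remaining window with the core, of *Gzmm* (chr10:79693576-79693825, plus strand, 188 bases before that start), also lies wholly within its gene. That of *Xcl1* overlaps its gene by a few bases that do not include the core.

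Most UMIs of the 10 genes together lay in the lymphocyte gates, but not those of each gene. Barcodes outside both gates were 97.7% of those kept in control, 90.2% in untreated and 92.0% in treated mice, and they held 8.48%, 5.85% and 11.7% of the UMIs of the 10 genes. The balance between the gates differed between libraries. NK-gated cells held 65.1% of these UMIs in control mice, 43.5% in untreated and 30.5% in treated mice, and Cd3+ cells held 26.4%, 50.6% and 57.8%. These shares move with the number of cells in each gate, which for Cd3+ cells was far higher in MRL/lpr mice. Summed over all barcodes outside the gates, each gene lay below its level in empty droplets in every library, except *Gzmm* in control mice. Of *Gzmm* 80.3% of UMIs in control and 74.6% in treated mice lay outside the gates, and of *Gzmk* 35.9% in control mice. *Gzma* was at 1.77 CPM in barcodes with endothelial markers of control mice, 3.54 of untreated and 2.32 of treated mice, against 33.1, 78.1 and 50.9 in empty droplets. *Ifng* had 0 of its 70 UMIs outside the gates in control mice, which allows up to 3 counts in 11206 barcodes, and 74 of 655 and 85 of 861 in untreated and treated mice.

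**Figure D1:**
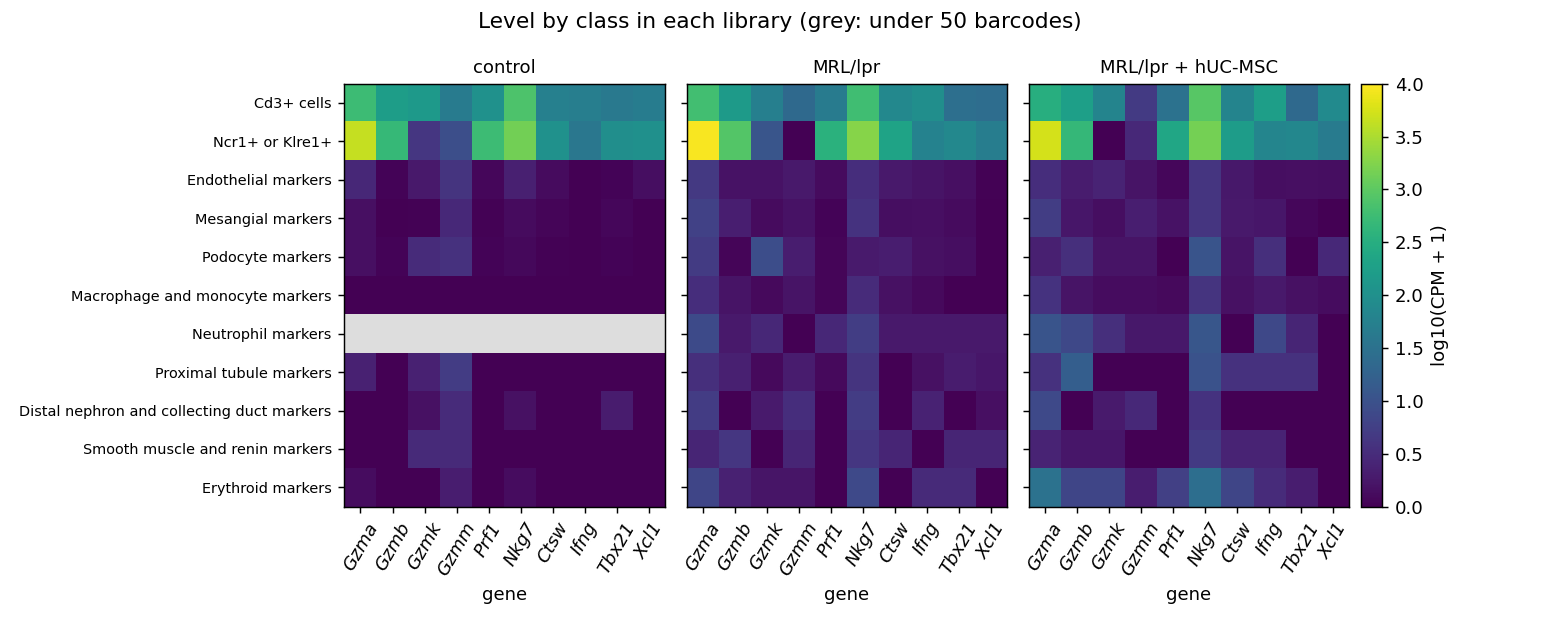
Level of each gene, as log10(CPM + 1), in Cd3+ cells, in Cd3-negative cells with *Ncr1* or *Klre1* and in barcodes with markers of 9 other classes, for each library, with classes under 50 barcodes in grey. The 2 top lines are the brightest for most genes, with *Gzma* brightest in the second line and *Gzmk* and *Gzmm* dark there.

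*Gzma*, a granzyme of NK cells and CD8 T cells (ENSMUSG00000023132, chr13:113093825-113100981 of GRCm38, minus strand), was the most abundant of the 10 in NK-gated cells. It had 4443 CPM (4278 to 4612) in control, 9054 (8828 to 9284) in untreated and 5489 (5291 to 5692) in treated mice. Untreated MRL/lpr mice were highest and the intervals did not overlap. In NK-gated cells with no other marker call the levels were 11550 (11030 to 12080), 17440 (16980 to 17920) and 11440 (10990 to 11890), with untreated mice again highest and overlapping intervals of control and treated mice. The log2 ratio was 1.03 (0.96 to 1.09) for untreated over control mice and -0.72 (-0.79 to -0.66) for treated over untreated mice. The first was under 2-fold in several alternatives, with 0.52 when every cell weighed the same, 0.57 with at most 3000 genes, 0.60 without barcodes of another marker call and 0.82 with gates of at least 2 UMIs. In Cd3+ cells the levels were 546 CPM (499.7 to 596), 624 (604 to 644.5) and 322.5 (306 to 340.0). Treated mice were lowest, with log2 ratios of 0.19 (0.06 to 0.33) and -0.95 (-1.04 to -0.86). The first ratio ran from -0.028 with every cell weighing the same to 0.51 without the top cells and 0.94 with gates of at least 2 UMIs, so its size and direction were not settled. The second passed 2-fold in some alternatives, with -1.07 without barcodes of another marker call, -1.20 with at most 3000 genes and -1.31 in barcodes of at least 2500 UMIs. A few cells carried the control value, since 1 cell held 125 of the 505 UMIs and 10 cells 79.0%. Cd3+ cells with a UMI of *Ncr1* or *Klre1* carried much of it in every library, and without them the ratio of treated over untreated mice was -0.49.

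*Gzmb*, the granzyme that cuts caspases (ENSMUSG00000015437, chr14:56258838-56262260, minus strand), was higher in NK-gated than in Cd3+ cells of each library. NK-gated cells had 472 CPM (420 to 530) in control, 836 (768 to 908) in untreated and 458.5 (403 to 520) in treated mice. Untreated mice stood above both others, with log2 ratios of 0.82 (0.62 to 1.03) and -0.87 (-1.09 to -0.65). The first was 0.35 when every cell weighed the same, 0.44 without barcodes of another marker call and 0.49 with at most 3000 genes. With free RNA subtracted it was 0.95. In Cd3+ cells the levels were close to each other, with 169.9 CPM (144 to 199), 148 (138 to 158) and 183 (171 to 197), and the ratios were -0.20 (-0.45 to 0.05) and 0.31 (0.17 to 0.45). The second ratio was -0.22 when every cell weighed the same, 0.03 with at most 3000 genes and 0.12 without barcodes of another marker call. It was 0.72 with gates of at least 2 UMIs and 0.80 in barcodes of at least 2500 UMIs. Without Cd3+ cells with *Ncr1* or *Klre1* it was 0.87, so its size was not settled. In the main values treated over untreated mice thus differed in direction between the gates, and this was not tested.

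*Gzmk*, a granzyme of memory-like T cells (ENSMUSG00000042385, chr13:113171608-113225908, minus strand), was a gene of Cd3+ cells. It had 143 CPM (119.5 to 169) in control, 52.5 (46.8 to 58.8) in untreated and 63.2 (55.9 to 71.2) in treated mice. Control mice were highest, with a log2 ratio of -1.44 (-1.74 to -1.14) for untreated over control mice, and the alternatives gave -2.02 to -1.16. The ratio of treated over untreated mice was 0.27 (0.03 to 0.51), and -0.05 with every cell weighing the same. NK-gated cells had 2 UMIs in control, 7 in untreated and 0 in treated mice, against 2746, 6098 and 2909 of *Gzma*. The remaining *Gzmk* UMIs were partly in barcodes with podocyte markers, with 38 in control, 58 in untreated and 1 in treated mice. These are 2.11 CPM over 2583 barcodes, 7.68 (5.83 to 9.93) over 1259 and 0.63 over 370, and the level in untreated mice was higher by value than the 3.47 CPM (1.66 to 6.38) of their empty droplets. The gene overlaps *Esm1* on the other strand, and how the counting used strand is not given in the sources used here.

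*Gzmm* (ENSMUSG00000054206, chr10:79689020-79695261, plus strand), a granzyme described in innate-like lymphocytes and CD8 T cells, was the gene with the lowest counts in treated mice. Cd3+ cells held 41 UMIs in control mice, 127 in untreated and 16 in treated mice, or 44.4 CPM (31.8 to 60.2), 22.01 (18.4 to 26.2) and 3.72 (2.13 to 6.04). The value in treated mice was near that of empty droplets, 3.84 CPM. The log2 ratio was -1.01 (-1.53 to -0.47) for untreated over control mice and -2.57 (-3.42 to -1.81) for treated over untreated mice, and the latter stayed between -3.66 and -2.14 in the alternatives. In control mice 11 of the 41 UMIs were in 1 cell, and without the top cell of each library the first ratio was -0.66. NK-gated cells had 5, 0 and 1 UMIs. Outside the gates control mice had 188 *Gzmm* UMIs, 80.3% of all, at 2.495 CPM and close to empty droplets.

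*Prf1*, which encodes perforin (ENSMUSG00000037202, chr10:61297833-61304680, plus strand), was lower in MRL/lpr mice in both gates. NK-gated cells had 545 CPM (489 to 607) in control, 362 (318 to 411) in untreated and 232 (193 to 277) in treated mice. Each step was lower than the one before, with log2 ratios of -0.59 (-0.83 to -0.35) and -0.64 (-0.97 to -0.32). The first was past 2-fold in several alternatives, with -1.18 without barcodes of another marker call, -1.14 when every cell weighed the same and -1.07 with at most 3000 genes. In Cd3+ cells the levels were 105 CPM (85.1 to 128), 44.7 (39.4 to 50.5) and 31.6 (26.5 to 37.4), with ratios of -1.23 (-1.57 to -0.88) and -0.50 (-0.81 to -0.20). In control mice 26 of the 97 UMIs were in 1 cell, and without the top cells the first ratio was -0.84 and no longer past 2-fold. With gates of at least 2 UMIs the second ratio in Cd3+ cells was -0.14, outside its interval. *Gzma* and *Prf1*, which act together in granules, thus had ratios of opposite sign in NK-gated cells of untreated over control mice, which was not tested.

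*Nkg7* (ENSMUSG00000004612, chr7:43437073-43438249, plus strand), a membrane protein of granules needed for their release, was the most widely found of the genes in Cd3+ cells, with a UMI in 58.0%, 46.4% and 47.0% of them. Levels in Cd3+ cells were 762 CPM (706 to 820) in control, 591 (571 to 611) in untreated and 912.5 (884 to 941.5) in treated mice. Treated mice were highest, and the log2 ratios were -0.37 (-0.48 to -0.25) and 0.63 (0.56 to 0.69). The first was -0.086 with free RNA subtracted and -0.87 in barcodes of at least 2500 UMIs. NK-gated cells had 1425 CPM (1333 to 1523), 1890 (1788 to 1997) and 1434 (1334 to 1540), with untreated mice highest and ratios of 0.41 (0.28 to 0.53) and -0.40 (-0.53 to -0.27). The first of these did not hold without barcodes of another marker call, at -0.10. *Ctsw* (ENSMUSG00000024910, chr19:5465043-5468507, minus strand), a cathepsin of cytotoxic cells, had 54.1 CPM (40.2 to 71.3), 72.3 (65.5 to 79.6) and 62.3 (55.0 to 70.2) in Cd3+ cells, and both ratios had intervals that held 0. Without barcodes of another marker call it had 111 (80.1 to 150.3), 172 (154 to 190.4) and 115 (100.4 to 132), with untreated mice above both others and ratios of 0.63 and -0.57. In NK-gated cells it had 103.5 (79.7 to 132), 208 (175 to 245) and 160.4 (128 to 198), with log2 ratios of 1.00 (0.57 to 1.46) and -0.37 (-0.78 to 0.02). The first was 0.32 without barcodes of another marker call. It overlaps *Fibp* on the other strand.

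*Ifng* (ENSMUSG00000055170, chr10:118441046-118445892, plus strand) was mainly a gene of Cd3+ cells, which held 67.1% of its UMIs in control, 82.7% in untreated and 86.1% in treated mice. The level in Cd3+ cells was 50.9 CPM (37.4 to 67.6; 47 UMIs) in control, 93.9 (86.2 to 102; 542 UMIs) in untreated and 172 (160.0 to 185; 741 UMIs) in treated mice. It increased from library to library, with log2 ratios of 0.89 (0.45 to 1.35) for untreated over control and 0.87 (0.71 to 1.04) for treated over untreated mice. In barcodes of at least 2500 UMIs these were 0.30 and 1.63. NK-gated cells had 37.2 CPM (23.6 to 55.8), 57.9 (41.2 to 79.2) and 66.0 (46.0 to 91.8), where the intervals overlapped. Ordered by level, treated and untreated Cd3+ cells came first, and the intervals of the other 4 groups overlapped each other. That of treated NK-gated cells also reached that of untreated Cd3+ cells. *Ifng* was lower in NK-gated than in Cd3+ cells of both MRL/lpr libraries, with a log2 ratio of -0.45 (-1.24 to 0.30) in control, -0.70 (-1.21 to -0.23) in untreated and -1.38 (-1.92 to -0.89) in treated mice. For *Gzma* the same ratio was 3.02, 3.86 and 4.09, and for *Prf1* 2.38, 3.02 and 2.88.

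A single barcode carried much of the value in treated mice. It held 183 of the 741 *Ifng* UMIs and 182 of the 354 *Xcl1* UMIs of Cd3+ cells, while the next highest cell had 12 *Ifng* UMIs. Without the top cell of each library *Ifng* was at 130 CPM in treated mice and the log2 ratio over untreated mice was 0.49. Weighing every cell the same it was 0.35. The share of Cd3+ cells with an *Ifng* UMI did not follow the level. It was 14.9% in control, 20.9% in untreated and 17.7% in treated mice, and after each cell was thinned at random to 500 UMIs the median of 20 draws was 4.02% (range 1.72% to 5.17%), 7.12% (5.59% to 7.69%) and 7.01% (6.21% to 7.93%). In barcodes with endothelial markers, which should lack *Ifng* and had median depths of 4281, 3649 and 2732 UMIs, 0%, 0.297% and 0.164% had a UMI, and 0%, 0.0636% and 0.0491% after thinning.

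*Tbx21* (ENSMUSG00000001444, chr11:97098071-97115331, minus strand) did not follow *Ifng*. In Cd3+ cells it had 41.1 CPM (29.1 to 56.4) in control, 27.7 (23.6 to 32.4) in untreated and 22.5 (18.3 to 27.5) in treated mice. Control mice were highest by value, with log2 ratios of -0.57 (-1.09 to -0.02) and -0.30 (-0.68 to 0.07). Without Cd3+ cells that held *Ncr1* or *Klre1* the first was 0.17. NK-gated cells had 93.8 CPM (71.3 to 121), 72.8 (53.8 to 96.2) and 69.8 (49.2 to 96.2), and the intervals overlapped. Without barcodes of another marker call *Tbx21* was at 281 CPM (206 to 375) in control and 122 (85.7 to 168) in untreated NK-gated cells, a log2 ratio of -1.21 in place of -0.37. In Cd3+ cells *Tbx21* rested on 38, 160 and 97 UMIs, so small differences were not detectable at this depth.

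*Xcl1*, the chemokine that draws cross-presenting dendritic cells (ENSMUSG00000026573, chr1:164931644-164935527, minus strand), rested on few cells. Cd3+ cells had 47.6 CPM (34.6 to 63.9) in control, 26.4 (22.3 to 30.9) in untreated and 82.3 (73.9 to 91.3) in treated mice. A single cell held 52.3% of the UMIs in control, 27.6% in untreated and 51.4% in treated mice, and 10 cells held 97.7%, 70.4% and 81.4%. The log2 ratio of untreated over control mice was -0.85 (-1.35 to -0.33), and it was 1.83 without Cd3+ cells with *Ncr1* or *Klre1* and 0.33 without barcodes of another marker call. Treated over untreated mice had 1.64 (1.36 to 1.93), and 1.07 without the top cells. In NK-gated cells the levels were 100.3 CPM (76.9 to 129), 49.0 (33.7 to 68.8) and 45.3 (29.0 to 67.4), with ratios of -1.03 (-1.69 to -0.40) and -0.11 (-0.94 to 0.69). The first was -2.40 without barcodes of another marker call and -0.62, no longer past 2-fold, without the top cells. *Gm20743* overlaps the gene on the other strand.

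**Figure D2:**
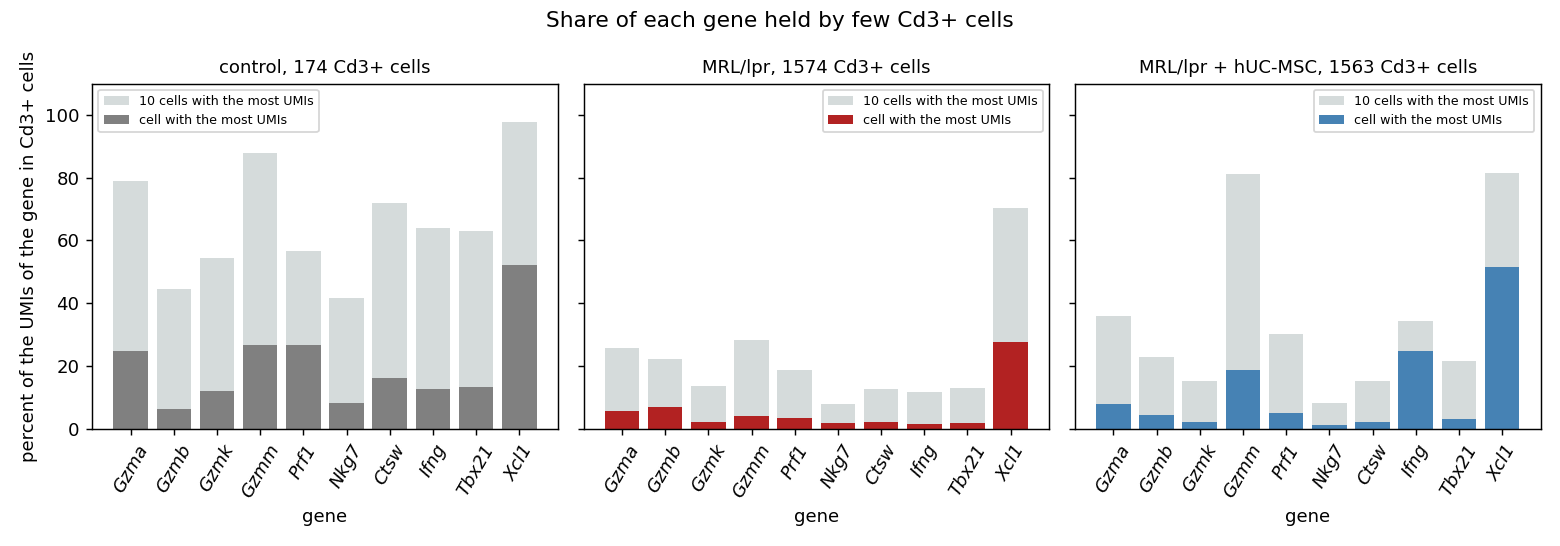
Percent of the UMIs of each gene in Cd3+ cells that lay in the single cell (coloured) and in the 10 cells (light) with the most UMIs of that gene, for each library. In untreated mice *Xcl1* stands alone with 70.4% in 10 cells, in treated mice *Gzmm* and *Xcl1* do with 81.2% and 81.4%, and among only 174 Cd3+ cells of control mice each gene has at least 41.6% in 10 cells.

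**Figure D3:**
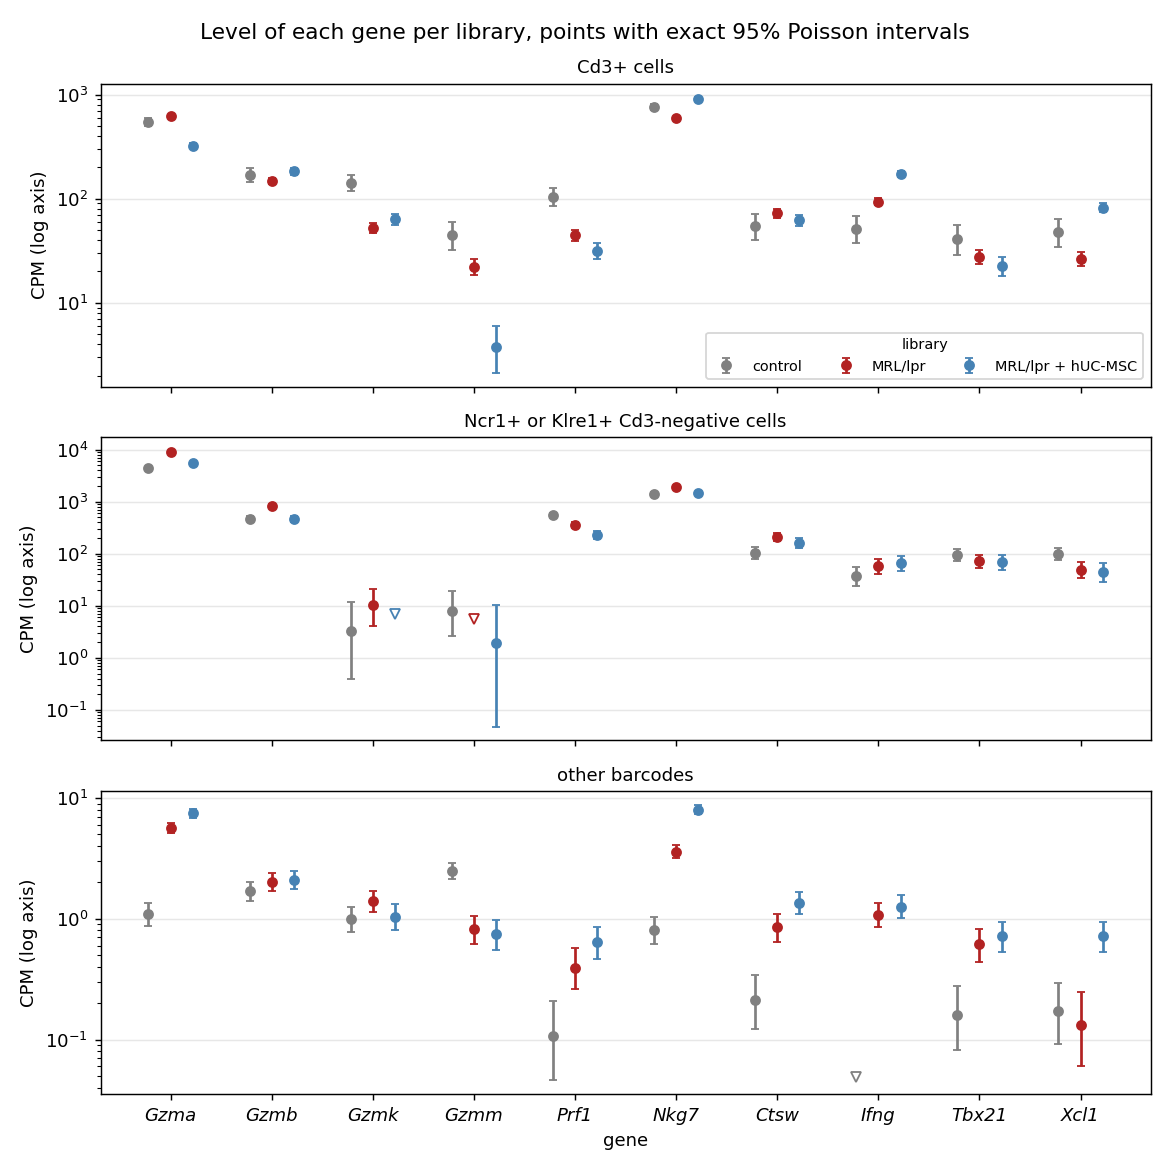
Level of each gene in CPM on a log axis, for Cd3+ cells, NK-gated cells and other barcodes, with bars for exact 95% Poisson intervals and open triangles for the upper limit of a gene with 0 UMIs. *Ifng* climbs from control to treated mice in Cd3+ cells, *Gzma* and *Gzmb* peak in untreated mice in NK-gated cells, and in other barcodes no gene lies above 8.02 CPM.

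Both comparisons use the library of untreated MRL/lpr mice, so they are not independent. Past 2-fold, 0 of the 10 genes were higher and 3 lower (*Gzmk*, *Gzmm* and *Prf1*) in Cd3+ cells of untreated over control mice, against 11.3% higher and 5.27% lower of the 12576 genes with at least 20 UMIs. In treated over untreated mice there were 1 higher (*Xcl1*) and 1 lower (*Gzmm*), against 3.38% and 6.44% (9.82% in either direction) of 13507 genes. In NK-gated cells 8 of the 10 had enough UMIs, all but *Gzmk* and *Gzmm*. Of these 2 were higher (*Gzma* and *Ctsw*, both close to 2-fold) and 1 lower (*Xcl1*) in untreated over control mice, against 6.23% and 11.0% of 7509 genes. Without barcodes of another marker call the same comparison had 0 of 8 higher and 3 lower, *Prf1* (-1.18), *Tbx21* (-1.21) and *Xcl1* (-2.40), against 8.34% and 14.8% of 3322 genes, with *Gzma* at 0.60 and *Ctsw* at 0.32. With those barcodes left out, NK-gated cells of treated over untreated mice had 0 of 8 in either direction, against 6.04% higher and 4.99% lower of 3524 genes. Cd3+ cells then had 0 higher and 3 lower (*Gzmk*, *Gzmm* and *Prf1*) in untreated over control mice, against 18.0% and 5.48% of 9320 genes, and 1 higher (*Xcl1*) and 2 lower (*Gzma* and *Gzmm*) in treated over untreated mice, against 5.48% and 7.42% of 10842 genes. With all NK-gated barcodes, treated over untreated mice had 0 in either direction, against 5.79% and 4.3% (10.1% together) of 7233 genes, although 7 of the 8 ratios were below 0 and only *Ifng* above. Several NK receptors also had values below 0 in this comparison, with log2 ratios of -0.70 for *Klrc1*, -0.77 for *Klrb1c*, -1.16 for *Klrc2* and -0.33 for *Klrd1*, while *Fcer1g* had 0.06. *Eomes*, also an NK marker, was past 2-fold higher on few UMIs, and other NK markers are not given here. The gate genes themselves, which the gate selects on, had -0.63 for *Ncr1* and -0.15 (-0.44 to 0.14) for *Klre1*. Of the NK-gated cells 97 of 179 in treated and 52 of 160 in untreated mice had 1 UMI of the gate genes. With gates of at least 2 UMIs, which leave these out, the ratios were -0.50 for *Gzma*, -0.68 for *Gzmb*, -0.44 for *Prf1*, -0.19 for *Nkg7* and -0.07 for *Ctsw*, all nearer to 0, and *Tbx21* and *Xcl1* were above 0 with 0.18 and 0.16. The median log2 ratio of the genes entered was -0.47 and 0.03 in Cd3+ cells, where all genes had 0.01 and -0.03, and 0.52 and -0.39 in NK-gated cells, where all genes had -0.15 and 0.06.

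**Figure D4:**
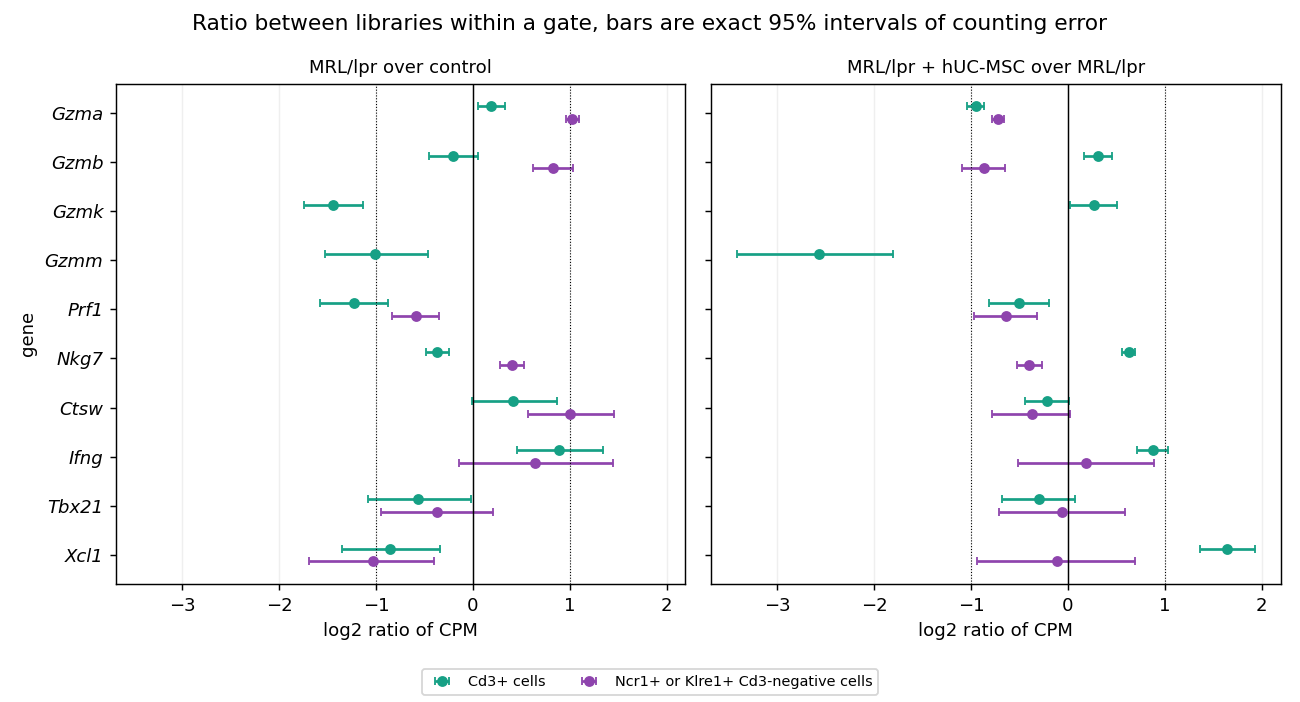
Log2 ratio of CPM for each gene, untreated MRL/lpr over control mice on the left and treated over untreated on the right, with exact 95% intervals of counting error, a solid line at 0 and dotted lines at 2-fold. In NK-gated cells *Gzma* and *Gzmb* lie right of 0 on the left and left of 0 on the right, while *Ifng* in Cd3+ cells lies right of 0 in both panels.

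The Cd3+ cells without a marker call of another class were split by the co-receptor genes they held. CD8 T cells are the main cytotoxic T cells, and CD4 T cells help other cells. Cells with a UMI of *Ncr1* or *Klre1* were kept apart. The cells without *Cd4*, *Cd8a*, *Cd8b1* or *Trdc* were 38 in control, 703 in untreated and 732 in treated mice. Double-negative T cells are known from lpr mice, but at these depths a cell that expresses a co-receptor can also have no UMI of it. *Gzma* was at 706 CPM in the 49 *Cd8* cells of control, 1642 in the 166 of untreated and 1476 in the 105 of treated mice, and at 24.0, 168 and 169 in cells with none of these genes. The log2 ratio of *Cd8* cells over cells with none was 3.29 (3.06 to 3.52) in untreated and 3.12 (2.87 to 3.38) in treated mice. In the 47 *Cd4* cells of untreated mice *Gzma* had 3 UMIs, or 20.7 CPM.

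*Ifng* was spread more evenly than *Gzma* over these cells. In untreated mice it had 303 CPM in *Cd4* cells, 201 in *Cd8* cells and 199.6 in cells with none, and the log2 ratio of *Cd8* cells over cells with none was 0.01 (-0.34 to 0.36). In treated mice the levels were 320, 373.5 and 250.5 CPM and this ratio 0.58 (0.21 to 0.93), and in control mice it was -1.10 (-2.10 to -0.07). *Gzmk* in untreated mice was higher in *Cd4* than in *Cd8* cells, with 248 against 118 CPM and a log2 ratio of *Cd8* over *Cd4* of -1.07 (-1.69 to -0.42). In treated mice it was the other way round, with 87.2 against 178 CPM and a ratio of 1.03 (0.14 to 1.99). Both *Cd4* values rest on few UMIs, 36 and 15. *Nkg7* in cells with none of the genes was at 712 CPM in untreated and 1648 in treated mice, and *Gzmb* there at 159 and 273.5. *Gzmm* in untreated mice was mainly in *Cd8* cells, with 76 UMIs against 15 in the larger set with none, and in treated mice *Cd8* cells had 8. Cd3+ cells with *Ncr1* or *Klre1*, 13 in control, 91 in untreated and 55 in treated mice, had the highest *Gzma* levels of Cd3+ cells, with 6958, 7846 and 5159 CPM.

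**Figure D5:**
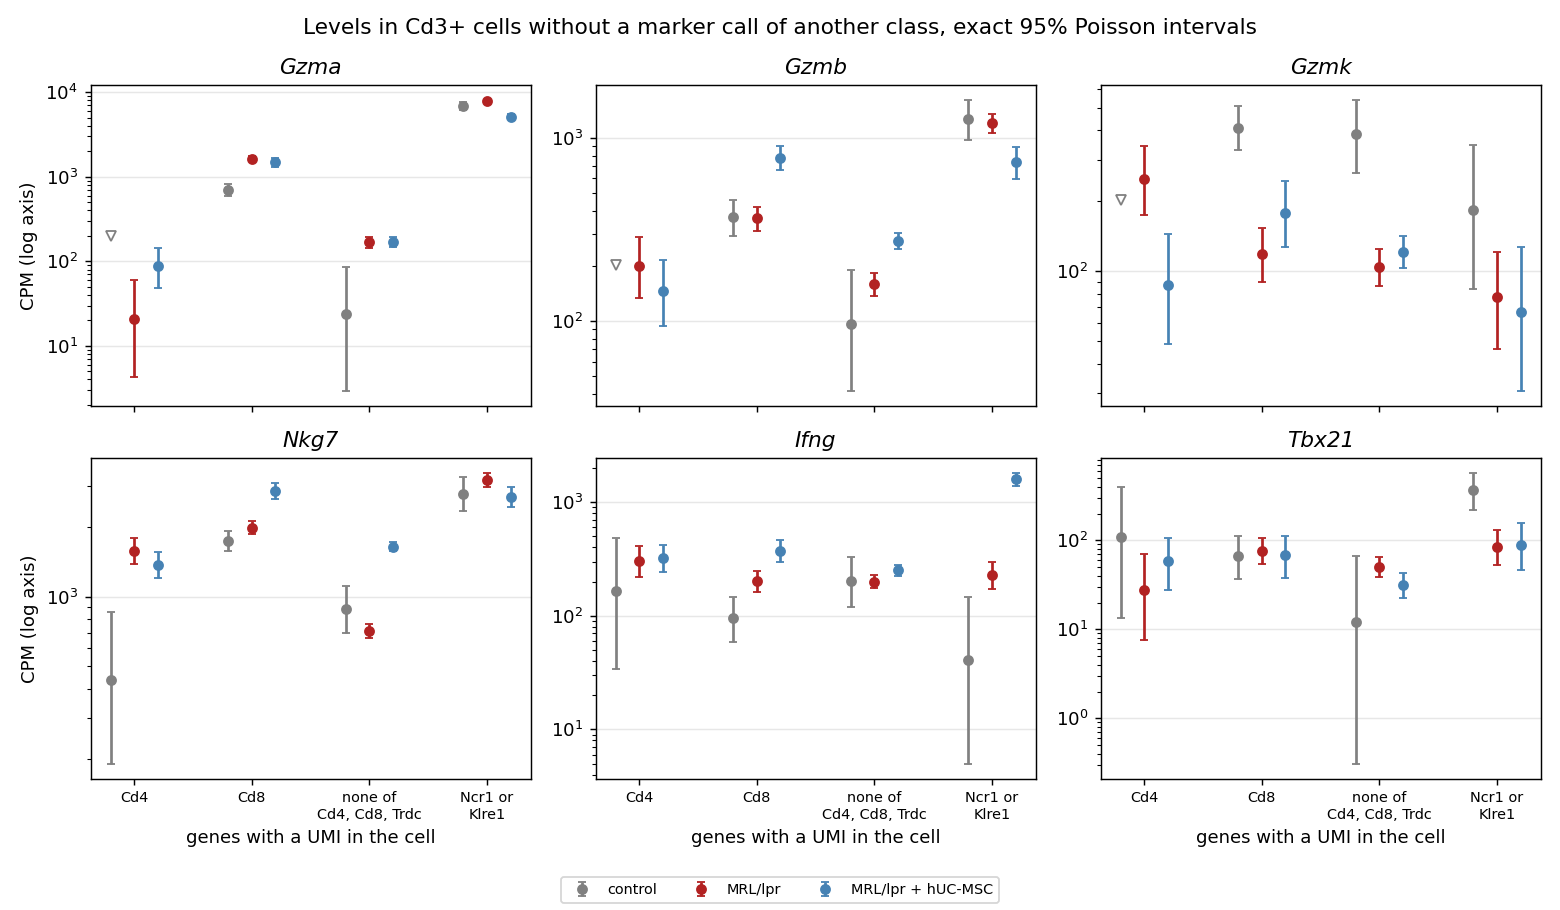
Levels of 6 genes in CPM on a log axis in Cd3+ cells without a marker call of another class, split by the genes they hold, for each library, with exact 95% Poisson intervals and open triangles for the upper limit at 0 UMIs. *Gzma* steps up from *Cd4* to *Cd8* cells and to cells with *Ncr1* or *Klre1*, *Ifng* lies between 199.6 and 373.5 CPM in the first 3 sets of both MRL/lpr libraries, and its high point in treated mice with *Ncr1* or *Klre1* (1591 CPM) includes the barcode with 183 UMIs.

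Cells were also compared for how many of the 10 genes they held. NK-gated cells had a median of 5 of the genes in control, 5 in untreated and 3 in treated mice, and Cd3+ cells of 2, 1 and 1. Thinned to 500 UMIs, a median over 20 draws of 47.8% (range 40.9% to 52.7%) of NK-gated cells in control, 43.1% (38.8% to 50.6%) in untreated and 28.2% (23.5% to 32.4%) in treated mice held at least 3. The ranges cover the thinning of 1 library each. As many as 97 of 179 NK-gated cells in treated mice, 52 of 160 in untreated and 23 of 93 in control mice had 1 UMI of the gate genes, whose part in this share was not tested. In Cd3+ cells the medians were 9.77%, 6.99% and 5.63%, and in barcodes with endothelial markers 0% in each library. Of the Cd3+ cells 57 of 174 in control, 506 of 1574 in untreated and 735 of 1563 in treated mice had 1 UMI of the *Cd3* genes. The part of these cells was not tested either. At the same depth *Gzmb* was found in 35.1% (28.2% to 40.3%) of *Gzma*-positive and 4.3% of other Cd3+ cells of untreated mice, and in 28.4% (20.4% to 35.9%) and 5.17% in treated mice. *Nkg7* was found in 43.1% (35.4% to 49.6%) of *Ifng*-positive and 22.6% of other Cd3+ cells of untreated mice, and in 68.2% (60% to 75.4%) and 26.7% in treated mice. Barcodes that may hold more than 1 cell were not removed from these shares.

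Genes of the same pathways were taken from 4 lists. They were chosen with earlier results known, and the shares of all genes past 2-fold given above apply to them too. In Cd3+ cells of untreated over control mice, *Fcer1g* and *Tyrobp*, adaptors of myeloid and NK cells, and macrophage markers were also higher. *Fcer1g* had 112.5 against 605 CPM (control against untreated mice), *Tyrobp* 87.6 against 455, and the 9 macrophage and monocyte markers 38.95 against 680 in sum, with 4 and 9 of them detected. The macrophage and monocyte call was on 0 and 48 Cd3+ barcodes. Some NK receptors were not higher there, with log2 ratios of -0.70 for *Klrc1*, -0.61 for *Klrk1*, -0.62 for *Klrc2*, -0.47 for *Klrb1c*, -0.19 for *Ncr1*, -0.09 for *Klre1* and -0.06 for *Klrd1*. Other NK receptors of the marker list are not given here, so this does not hold for NK receptors as a set. Of 19 genes of granule cargo and release, 13 had enough UMIs in Cd3+ cells, and 2 of them, *Stxbp2* and *Ctsc*, were past 2-fold higher in untreated over control mice, where all genes had 11.3%. *Ctsc*, the protease that activates granzymes, had 93.8 against 33.5 CPM and a log2 ratio of 1.48 (0.96 to 2.06). In barcodes with no other marker call *Ctsc* had 94.5 (81.7 to 109) against 79.4 (53.6 to 113), and the intervals overlapped. *Srgn*, which encodes the proteoglycan that packs granules and is also made by other cells, had 0.08. None was past 2-fold in treated over untreated mice, and *Fasl*, the ligand of Fas, had -0.80 (-1.04 to -0.55). In NK-gated cells *Unc13d* had 24 against 11 UMIs in untreated and control mice, and its log2 ratio of 1.00 had an interval that held 0 (-0.08 to 2.18). *Lyst* and *Ctsc* were higher and *Cst7* lower in treated over untreated mice. The granzymes *Gzmc* to *Gzmg* and *Gzmn* were at or near 0, with at most 3 UMIs of *Gzmc* in a gate.

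Of 19 genes of interferon gamma induction and its receptor, 15 were entered in Cd3+ cells for untreated over control mice and 17 for treated over untreated mice. In the first 4 of the 15, *Hlx*, *Id2*, *Tnf* and *Il18*, were past 2-fold higher, against 11.3% of all genes, and 0 lower. Their log2 ratios were 1.53, 1.60, 1.22 and 2.21, and *Il18* rested on 5 UMIs in control mice and is also a gene of other classes. Without barcodes of another marker call *Id2* had 275.8 CPM (253.6 to 299) in untreated and 100.6 (71.2 to 138) in control mice, and *Tnf* 27.0 (20.4 to 35.1) and 18.5 (7.45 to 38.2). *Hlx* and *Il18* then kept 13 and 33 of their 162 and 144 UMIs in untreated mice, so most lay in barcodes with another marker call. Control mice had 0 and 0, but among 377818 UMIs in place of 2074096, so these counts cannot be set side by side. The part of other cells and of free RNA in these 4 and in *Ctsc* was not tested further. *Stat4*, which carries the interleukin 12 signal to *Ifng*, had -0.98 (-1.27 to -0.70) and then -0.14 (-0.36 to 0.08). *Il12rb2*, a chain of the interleukin 12 receptor, had -0.79 (-1.31 to -0.24) and -0.74 (-1.19 to -0.30). *Eomes* was past 2-fold lower in treated over untreated mice, with 27.4 against 55.3 CPM and a ratio of -1.01 (-1.33 to -0.70), as was *Il12a* on 3 against 18 UMIs. In NK-gated cells *Id2* was higher and *Eomes* lower in untreated over control mice, *Tnf* had 16 against 6 UMIs and 1.29 (-0.14 to 2.93), and *Eomes* and *Ifngr2* were higher in treated over untreated mice. *Eomes* there rested on 31, 9 and 19 UMIs.

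Of 9 chemokines and receptors of effector lymphocytes, 8 were entered in Cd3+ cells. *Ccl3*, a chemokine of activated lymphocytes and macrophages, was the 1 of these past 2-fold higher in untreated over control mice, with 77.5 against 11.9 CPM and a log2 ratio of 2.70 (1.85 to 3.71). With those barcodes that carried another marker call left out, *Ccl3* had 94.98 (82.2 to 109) against 23.8 (10.9 to 45.2), while *Fcer1g* in the same barcodes still had 456 against 138, and the part of myeloid RNA was not tested. In treated over untreated mice *Ccl3* had 1.46 (1.29 to 1.62), *Ccl4* 1.28 (1.22 to 1.34) and *Cxcr6* 1.01 (0.73 to 1.29), or 3 of 8 past 2-fold higher against 3.38% of all genes. *Fcer1g* went from 605 to 990.2 CPM (0.71) and *Tyrobp* from 455 to 705 (0.63) in the same comparison, and their part in it was not tested. The barcode with 183 *Ifng* UMIs held 83 of the 916 *Ccl3* and 243 of the 6060 *Ccl4* UMIs. *Cxcr3*, the receptor of CXCL10 on Th1 cells, had 23, 98 and 65 UMIs in the 3 libraries and -0.55 (-1.22 to 0.17) and -0.17 (-0.64 to 0.30). In NK-gated cells *S1pr5* was past 2-fold lower in treated over untreated mice. Of 11 genes of other helper programmes 6 were entered, and *Il17f*, *Il10* and *Il2* were higher and *Gata3* lower in Cd3+ cells of untreated over control mice, *Il10* and *Il2* against only 2 and 1 UMIs and *Il17f* against 0. Treated over untreated mice had *Il10* higher, with 1.19 (0.67 to 1.72), and *Il17f* lower, with 13 against 45 UMIs. *Il21*, on 17 against 10 UMIs, had 1.19 with an interval that held 0 (-0.02 to 2.48). *Gata3*, which directs Th2 cells, had 113 CPM in control and 49.0 in untreated mice, a log2 ratio of -1.20 (-1.53 to -0.86).

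The genes most like *Ifng* and *Gzma* were sought over 32 combinations of gate or class and library, by Pearson's r of log2(CPM + 1) among 14882 genes. The 10 genes themselves and the genes of the gates were left out of the ranking. The combinations of a library share its depth and free RNA, and r describes mainly the contrast of lymphocytes with other classes. Closest to *Ifng* were *Trbc1* and *Zap70*, both with r of 0.97, then *Sh2d1a* and *Ptprcap*, which are lymphocyte genes. Closest to *Gzma* were *Gm2682*, *Klrd1*, *Il2rb*, *Klrc2* and *Gm19585*, all with 0.97, of which *Klrd1* and *Klrc2* encode NK receptors. Among the 10 genes *Prf1* was nearest to *Gzma* with 0.98 and *Nkg7* nearest to *Ifng* with 0.97, while *Gzmm* had 0.42 and 0.48.

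*Ifngr1* and *Ifngr2*, the chains of the interferon gamma receptor, were found in every class shown and in the lymphocyte gates. *Ifngr1* had 420 CPM in Cd3+ and 531 in NK-gated cells of control mice, 265 and 387.5 in untreated and 195 and 268 in treated mice. Among control classes of at least 50 barcodes it ranged from 9.18 CPM with erythroid markers to 344 with macrophage and monocyte markers, and the 5 dendritic-marked barcodes had 430.3. In podocyte-marked barcodes *Ifngr1* was 321 CPM in control, 167 in untreated and 130.1 in treated mice, while *Ifngr2* was 14.4, 19.7 and 30.8. *Xcr1*, the receptor of XCL1 and a marker of cross-presenting dendritic cells, had 127, 117 and 174 CPM in barcodes with dendritic cell markers. There were only 5, 23 and 46 of these barcodes. *Xcr1* is among the markers that made this call, so its level there follows from the selection. *Il12b*, which encodes a chain of interleukin 12, was highest in the same barcodes of untreated mice, with 136 CPM.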

How the data were processed

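Glomeruli were isolated with collagenase V and their cells captured in droplets. The authors deposited UMI counts of every barcode and gene, made with Cell Ranger before cells were called. The file header names Cell Ranger 4.0 and the study's methods another version, and the submitters' processing notes name mm10 and STAR. Each value was a whole number. Of 32285 gene IDs 32158 were found in GENCODE M21.

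The 10 genes and all lists were chosen with earlier results of these data known. Genes named are the 10, the genes of the gates, T cell subset genes and cell type markers, genes of 4 pathway lists past 2-fold or called for as a reference, and the 5 genes most like *Ifng* and *Gzma*. Some items that this rule names are not reported here. *Fas*, *Mcpt8*, *Hdc*, *Tnfrsf4*, *Tnfrsf9* and the top *Ifng* cell were added after values had been seen.

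A marker call of another class needed at least 3 UMIs of 2 distinct markers above the expected free RNA and 2 times the score of the next class, each score being scaled to the 98th percentile of its library. No doublet caller was run, and barcodes with another marker call, or with over 3000 genes, were left out as alternatives. A ratio needed at least 20 UMIs over both libraries, and a gene at 0 was set to 3 counts over the gate. Shares were also taken after thinning each cell at random to 500 UMIs, as the median and range of 20 draws, since single draws differed by several percentage points. Total UMIs were 94903163 in control, 103319588 in untreated and 90812138 in treated mice. Steps used Python 3.11.15, numpy 2.4.6, scipy 1.17.1, pandas 2.3.3 and matplotlib 3.10.9 and were tested on simulated data. Bulk and protein experiments of the study were not analysed here.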

Additional observations from a re-analysis of the deposited data

Results flagged for a closer look

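*Nkg7* and *Gzmb* had ratios of opposite sign in Cd3+ and NK-gated cells, with both intervals of counting error away from 0, and these differences between the gates were not tested. For untreated MRL/lpr over control mice the log2 ratio of *Nkg7* was -0.37 (-0.48 to -0.25) in Cd3+ cells and 0.41 (0.28 to 0.53) in NK-gated cells. The first ratio was -0.086 with free RNA subtracted, and the second was negative when barcodes with over 3000 genes or with the marker call of another class were left out. For treated over untreated mice *Nkg7* had 0.63 (0.56 to 0.69) and -0.40 (-0.53 to -0.27), and *Gzmb* had 0.31 (0.17 to 0.45) and -0.87 (-1.09 to -0.65). The direction of *Gzmb* in Cd3+ cells turned when every cell weighed the same, and that in NK-gated cells did not. Other alternatives moved *Gzmb* in Cd3+ cells the other way, up to 0.87 without those that held *Ncr1* or *Klre1*.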

How the results depend on the processing

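Of 37 log2 ratios none moved beyond its interval with at least 1000 UMIs, at most 5% mitochondrial UMIs or shared barcodes left out. The ratios that moved beyond it or changed sign were 19 of 36 with at least 2500 UMIs, 14 of 37 with at most 3000 genes, 14 of 36 without barcodes of another marker call, 14 of 37 with every cell weighing the same, 13 of 37 with gates of at least 2 UMIs, 7 of 20 without Cd3+ cells with *Ncr1* or *Klre1*, 5 of 37 with free RNA subtracted, 5 of 36 without the top barcode and 2 of 37 centred on the median gene. 5 alternatives, among them the repeated thinning and the counts of genes without barcodes of another marker call, were chosen after seeing the data. No paired analysis was possible because each condition had 1 library, so no replicate could be left out either. The study's limit of 5% ribosomal UMIs left 10 to 32 Cd3+ and 0 or 1 NK-gated cells and gave no ratio. *Gzmk* and *Gzmm* had few UMIs in NK-gated cells. The ratio of *Gzmk* there for untreated over control mice is among the 37, although it rested on only 7 against 2 UMIs. Below, U/C is untreated over control and T/U treated over untreated mice, and the causes were not tested.

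With gates of at least 2 UMIs *Gzma* had 0.94 (U/C) and -0.60 (T/U) in Cd3+ and 0.82 and -0.50 in NK-gated cells, and in Cd3+ cells T/U was -0.14 for *Prf1* and 1.20 for *Ifng*. With free RNA subtracted *Gzma* had U/C of 0.46 in Cd3+ and 1.16 in NK-gated cells, and centred on the median gene 1.18 in NK-gated cells. Weighing cells the same gave U/C of -0.028 for *Gzma* and T/U of -0.22 for *Gzmb*, -0.053 for *Gzmk*, -0.92 for *Prf1* and 0.35 for *Ifng* in Cd3+ cells, and U/C of 0.52 for *Gzma*, -1.14 for *Prf1* and -0.12 for *Nkg7* in NK-gated cells. Without the top barcode Cd3+ cells had U/C of 0.51 for *Gzma* and -0.84 for *Prf1* and T/U of 0.49 for *Ifng*. With at least 2500 UMIs Cd3+ cells had U/C of 0.30 for *Ifng* and T/U of -1.31 for *Gzma* and 1.63 for *Ifng*, and NK-gated cells 1.12 (U/C) and -1.26 (T/U) for *Gzma* and -1.08 (T/U) for *Prf1*. Without Cd3+ cells with *Ncr1* or *Klre1* U/C was 0.17 for *Tbx21* and 1.83 for *Xcl1*, and T/U -0.49 for *Gzma* and 0.51 for *Ifng*. With at most 3000 genes Cd3+ cells had 0.12 (U/C) for *Xcl1*, -1.20 (T/U) for *Gzma* and 0.63 (T/U) for *Ifng*, and NK-gated cells 0.57 and -0.82 for *Gzma*, -1.07 (U/C) for *Prf1* and -0.074 (U/C) for *Nkg7*. Without barcodes of another marker call Cd3+ cells had 0.33 (U/C) for *Xcl1* and -1.07 (T/U) for *Gzma*, and NK-gated cells 0.60 and -0.61 for *Gzma*, -1.18 (U/C) for *Prf1* and -0.10 (U/C) for *Nkg7*.

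Among all genes, a minimum of 50 UMIs left 921 higher and 376 lower past 2-fold in Cd3+ cells (U/C), where 20 UMIs gave 1422 and 663, and 243 and 521 (T/U), where it gave 456 and 870. In NK-gated cells it left 178 and 392 (U/C) against 468 and 829, and 145 and 103 (T/U) against 419 and 311. A minimum of 5 UMIs gave 1918 lower (U/C) and 1084 higher and 1475 lower (T/U) in Cd3+ cells, and 1398 and 1657 (U/C) and 1201 and 1039 (T/U) in NK-gated cells. Without barcodes of another marker call, which leaves fewer genes with 20 UMIs, NK-gated cells had 277 and 491 (U/C) and 213 and 176 (T/U).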

Other observations

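*Gzmb* also appeared outside lymphocytes, in barcodes with *Mcpt8*, a protease gene of basophils. Control mice had 3 such barcodes with 118 *Gzmb* UMIs, which were 92.9% of the *Gzmb* UMIs outside the gates, and 2 of them held 59 and 56. Untreated mice had 16 barcodes with 59 *Gzmb* UMIs, 45 of them in 1 barcode, and treated mice 50 barcodes with 22. The level in them was 8380 CPM in control, 1081 in untreated and 154 in treated mice. *Prf1* had 0 UMIs in these barcodes in all 3 libraries, while *Hdc*, which makes histamine, had 93, 157 and 254 and *Il4* had 28, 82 and 134. All other kept barcodes together held 16, 25 and 50 *Il4* UMIs.

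The barcode of treated mice with 183 *Ifng* and 182 *Xcl1* UMIs had 5615 UMIs, 1659 genes and 15 UMIs of the *Cd3* genes. It held 243 *Ccl4*, 83 *Ccl3* and 27 *Nkg7* UMIs, 4 each of *Tnfrsf4* and *Tnfrsf9*, which encode receptors of activated T cells, and 1 of *Klre1*. It had 0 UMIs of *Gzma*, *Prf1*, *Cd4*, *Cd8a* and *Trdc*, 1 of *Gzmb* and no marker call of another class. The highest *Ifng* cells of control and untreated mice had 6 and 8 UMIs.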
